A study of Mus musculus with 12 samples.

Results

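Gpnmb, Mmp12, Spp1, Trem2, Lgals3, Apoe and Cd68 are 7 genes known from macrophages that take up and break down lipid, though not from these alone. They were read here in whole lung and in extracellular vesicles. They were taken by gene name from tables of 21950 genes for lung and 8096 genes for vesicles, and all 7 were listed in each table. They were chosen for the way their levels in these same libraries run across the genotype labels, so their levels, ranks and genotype differences below are a description and carry no test. The files hold RNA only. Lipid was not measured, and the name lipid-laden rests on what the genes are known for.

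The lungs came from adult C57BL/6 mice and the vesicles from the medium of cultured lung mesenchymal cells after 48 h of culture. Each source had 2 libraries labelled ColcreER; Tbx4flox/flox and 4 labelled wild type, 12 libraries in all. In the label, CreER is a Cre recombinase that acts only in the presence of tamoxifen, with a driver abbreviated Col, and floxed Tbx4 is the gene it would delete. The series' design text names another genotype, Tbx4creER with Ghrflox/flox, so the libraries are called mutant-labelled. The labels say neither whether tamoxifen was given nor whether replicates were separate animals or cultures, so part of the spread between libraries may be technical, although the Y-linked gene below shows that the wild-type lungs came from at least 2 animals. The labels also do not tie a lung to the vesicles with the same replicate number.

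Values are RPKM, that is, reads scaled by exon length in kilobases and by the M (megareads) counted in genes. The lungs held 42.7 to 44.8 M reads in genes, the mutant-labelled vesicles 1.75 and 1.68 M, and the wild-type vesicles 4.2 to 5.41 M. In lung Tbx4 was read at 20.9 and 36.7 RPKM in the mutant-labelled pair and at 26.1 to 30.1 RPKM in wild type, so it was not lower in every library labelled as its deletion, and it was not listed in vesicles. In lung Ghr stood at 9.83 and 12.9 RPKM beside 11.8 to 13.3 RPKM in wild type, and in vesicles at 13.1 and 11.2 RPKM beside 19.8 to 25.1 RPKM. The Y-linked gene Ddx3y was read at 20.6 and 19.9 RPKM in wild-type lungs 1 and 2 and at 0 to 0.0369 RPKM in the other lungs, and the same replicate numbers carried it in vesicles. All 14 listed mesenchymal genes, among them Sparc and Acta2, were read in vesicles. The neutrophil list was the highest in the mutant-labelled lungs, with summed levels of 609 and 970 RPKM against 137 to 404 RPKM.

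Macrophages that ingest lipid from dead cells, surfactant or lipoproteins carry it to the lysosome, hydrolyse it there and pass the cholesterol on to carriers outside the cell. Trem2 is a surface receptor for lipids and lipoproteins, and Apoe, a lipoprotein component that accepts exported cholesterol, is among its ligands. Cd68 is a heavily glycosylated protein of the lysosome membrane, and Gpnmb is a transmembrane glycoprotein found on lysosomes and at the surface of such cells. Mmp12 is the macrophage elastase, a secreted protease of elastic fibres. Spp1 (osteopontin) is a secreted phosphoprotein that binds integrins and CD44, and Lgals3 (galectin-3) is a lectin for galactosides that gathers at damaged lysosomes. In the lung this set of genes is known from foamy alveolar macrophages and from macrophages of scarred tissue. Lgals3, Spp1 and Apoe are also made by other lung cells.

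The promoters of 6 members are shown, those of the 5 genes that had the same pair of lungs highest and, beside them, that of Spp1, which did not. Mmp12 and Spp1 have 2 windows each. For Mmp12 the one with a TGACTCA match is printed. For Spp1 the one with a GAGGAAGT match is printed, and its other window had no match to any motif searched. Each window runs from 250 bases before to 50 bases after a RefSeq start site on build GRCm38.p6, and capitals mark matches to the motifs named after the sequences.
Gpnmb promoter, chr6:49036268-49036567, plus strand: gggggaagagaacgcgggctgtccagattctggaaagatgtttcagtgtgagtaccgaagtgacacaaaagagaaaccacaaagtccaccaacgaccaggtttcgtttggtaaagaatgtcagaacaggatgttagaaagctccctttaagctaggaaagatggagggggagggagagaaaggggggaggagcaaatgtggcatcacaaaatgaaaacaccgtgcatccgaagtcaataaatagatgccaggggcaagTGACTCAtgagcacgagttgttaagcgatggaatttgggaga
Mmp12 promoter, chr9:7347124-7347423, plus strand: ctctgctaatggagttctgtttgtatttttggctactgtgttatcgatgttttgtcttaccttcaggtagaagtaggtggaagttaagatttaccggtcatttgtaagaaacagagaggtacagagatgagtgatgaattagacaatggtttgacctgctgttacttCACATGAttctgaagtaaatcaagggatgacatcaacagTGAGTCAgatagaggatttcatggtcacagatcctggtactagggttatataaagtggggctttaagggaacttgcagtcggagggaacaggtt
Trem2 promoter, chr17:48346151-48346450, plus strand: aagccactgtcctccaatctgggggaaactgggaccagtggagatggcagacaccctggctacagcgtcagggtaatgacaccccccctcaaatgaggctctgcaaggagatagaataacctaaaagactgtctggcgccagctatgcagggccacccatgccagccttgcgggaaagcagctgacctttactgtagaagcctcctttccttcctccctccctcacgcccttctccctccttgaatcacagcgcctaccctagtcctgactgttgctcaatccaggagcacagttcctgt
Lgals3 promoter, chr14:47373610-47373909, plus strand: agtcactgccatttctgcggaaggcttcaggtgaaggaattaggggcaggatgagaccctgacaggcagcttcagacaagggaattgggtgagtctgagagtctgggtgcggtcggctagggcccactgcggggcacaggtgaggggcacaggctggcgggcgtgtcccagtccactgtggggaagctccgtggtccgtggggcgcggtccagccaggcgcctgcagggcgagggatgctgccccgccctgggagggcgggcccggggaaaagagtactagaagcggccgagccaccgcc
Cd68 promoter, chr11:69666121-69666420, minus strand: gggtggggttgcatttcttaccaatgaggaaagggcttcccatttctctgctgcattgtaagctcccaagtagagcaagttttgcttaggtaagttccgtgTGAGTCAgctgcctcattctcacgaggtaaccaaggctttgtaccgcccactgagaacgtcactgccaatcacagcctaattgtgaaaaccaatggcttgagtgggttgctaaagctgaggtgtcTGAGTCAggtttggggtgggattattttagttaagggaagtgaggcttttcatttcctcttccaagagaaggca
Spp1 promoter, chr5:104434861-104435160, plus strand: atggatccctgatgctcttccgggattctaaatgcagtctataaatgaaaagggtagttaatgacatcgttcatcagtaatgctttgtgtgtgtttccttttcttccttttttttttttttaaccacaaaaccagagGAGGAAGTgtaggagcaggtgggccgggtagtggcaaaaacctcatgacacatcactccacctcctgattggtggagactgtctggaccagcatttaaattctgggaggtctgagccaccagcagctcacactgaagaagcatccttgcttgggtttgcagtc

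The motifs were chosen with the sequences and the levels in view, and were searched on both strands of the 11 windows that RefSeq gives for the 7 members. TGACTCA, the site of AP-1 factors, was found in Gpnmb from position 9, in the second window of Mmp12 from position -44 and in Cd68 from positions -149 and -24, counted from the start site. Trem2, Lgals3 and Apoe had no match to any of the 4 motifs. TGACTCA was thus found in 3 of the 7 genes, beside 5.95% of the 27025 genes with a window and 5.20% of the 32851 windows. GAGGAAGT, a site of the macrophage factor PU.1, was found in Spp1 from position -113 and in the first window of Mmp12 from position -88, beside 3.69% of genes. TCATGTG, an M-box of the MITF factor, was found in the second window of Mmp12, beside 4.31% of genes. CACGTG, the core of the site bound by the lysosomal regulator TFEB, had 0 matches in the members, beside 8.09% of genes. Within these sites no motif overlapped another. A match is a description of the letters and no evidence that a factor bound there.

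In whole lung, 5 of the 7 members were highest in a mutant-labelled library and in a wild-type library at the same time. Gpnmb, Mmp12, Trem2, Lgals3 and Cd68 each had mutant-labelled lung 1 and wild-type lung 3 as their 2 highest libraries. Of all 13701 genes tested in lung, 9.95% had that order. In none of the 7 members did both mutant-labelled lungs lie above every wild-type lung, an order found for 7.50% of genes, or below every wild-type lung, found for 4.12%. Wild-type lungs 1 and 4 were the 2 lowest for Lgals3 and Cd68, 2 of 7 members beside 6.13% of genes. The members were picked from these values, so nothing is read from these counts. In tissue RNA, more cells of a type and more RNA of a gene per cell cannot be told apart.

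**Figure D1:**
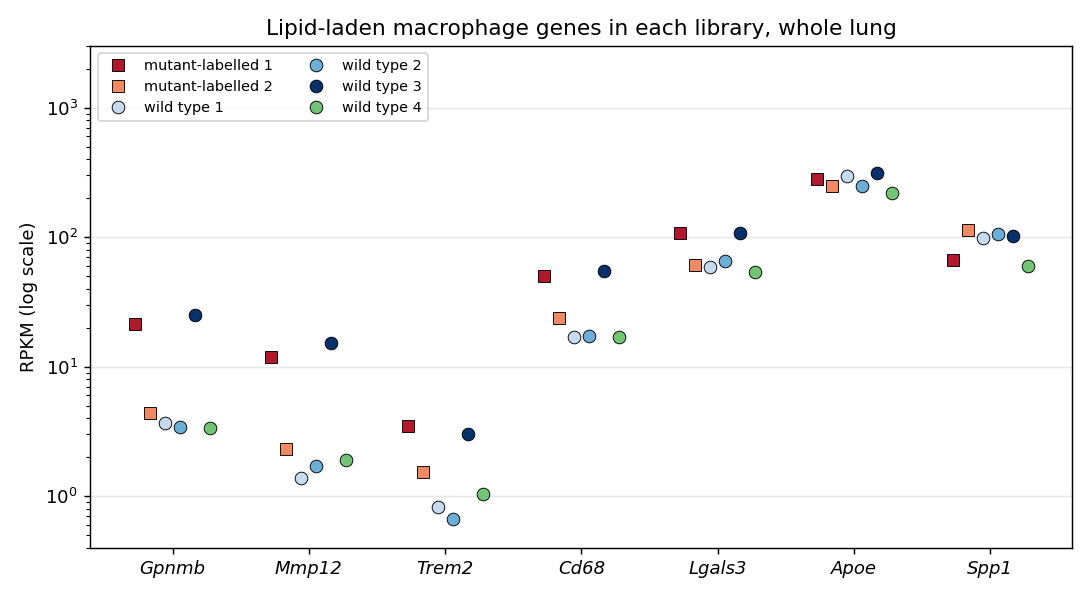
RPKM of each member on a log axis in the 6 whole-lung libraries, squares for mutant-labelled and circles for wild type. For Gpnmb and Mmp12, mutant-labelled lung 1 (21.4 and 11.9 RPKM) and wild-type lung 3 (24.9 and 15.2 RPKM) stand far above the other 4 lungs, while Apoe and Spp1 show no such gap.

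Gpnmb (ENSMUSG00000029816, mm9 chromosome 6, 48986517 to 49020928, plus strand, protein-coding) was read at 21.4 RPKM in mutant-labelled lung 1 and 4.36 RPKM in mutant-labelled lung 2, and at 3.70, 3.42, 24.9 and 3.36 RPKM in wild-type lungs 1 to 4. Wild-type lung 3 and mutant-labelled lung 1 were high, the other 4 lungs lay close together, and the second highest was 4.91 times the third. The difference, mutant-labelled minus wild type on the log2(RPKM + 1) scale, was 0.65 (SE 0.91), smaller than its error. Leaving out mutant-labelled lung 1 gave -0.38, leaving out its partner gave 1.68, and leaving out wild-type lung 3 gave 1.29. With sex, read from Ddx3y, as a covariate it was 0.04. Neither mutant-labelled lung was read as male, so that fit in effect sets them against wild-type lungs 3 and 4 alone.

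Mmp12 (ENSMUSG00000049723, mm9 chromosome 9, 7344381 to 7369499, plus strand, protein-coding) had the same 3 highest lungs as Gpnmb in the same order, and the 3 low wild-type lungs in the opposite order. The mutant-labelled pair stood at 11.9 and 2.31 RPKM and the wild-type lungs at 1.38, 1.72, 15.2 and 1.90 RPKM. The highest wild-type lung was 11 times the lowest, and the group means were 7.13 ± 6.82 RPKM (SD, n = 2) and 5.05 ± 6.78 RPKM (SD, n = 4). The log2 difference was 0.65 (SE 0.92), and it moved to -0.34 or 1.63 when the first or the second mutant-labelled lung was left out, to 1.30 when wild-type lung 3 was left out, and to -0.07 with sex as a covariate.

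Cd68 (ENSMUSG00000018774, mm9 chromosome 11, 69477715 to 69479655, minus strand, protein-coding) stood at 50.03 and 23.7 RPKM against 16.9, 17.2, 54.5 and 16.9 RPKM. Its 2 high lungs were again mutant-labelled 1 and wild type 3, and mutant-labelled lung 2 lay above the 3 lower wild-type lungs. The log2 difference of 0.57 (SE 0.55) became 0.05 or 1.10 when the first or the second mutant-labelled lung was left out, 0.98 when wild-type lung 3 was left out and 0.17 with sex as a covariate.

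Trem2 (ENSMUSG00000023992, mm9 chromosome 17, 48485726 to 48493472, plus strand, protein-coding) was the lowest member in every lung but wild-type libraries still differed 4.51-fold. It stood at 3.49 and 1.54 RPKM against 0.821, 0.666, 3.002 and 1.03 RPKM, on 142 to 750 reads. The gap was narrower than for Gpnmb, with the second highest lung at 1.94 times the third, which was mutant-labelled lung 2. The log2 difference was 0.60 (SE 0.40), and 0.19 or 1.01 when the first or the second mutant-labelled lung was left out.

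Lgals3 (ENSMUSG00000050335, mm9 chromosome 14, 47987426 to 48005835, plus strand, protein-coding) had the same 2 highest lungs over a smaller range, with wild-type lung 2 next. It stood at 107.8 and 60.9 RPKM against 58.4, 65.8, 106.8 and 53.7 RPKM, so that the 2 high lungs were level and the other 4 lay within 53.7 to 65.8 RPKM. The log2 difference was 0.24 (SE 0.33), and -0.17 or 0.65 when the first or the second mutant-labelled lung was left out.

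Apoe and Spp1 did not share the gap. Apoe (ENSMUSG00000002985, mm9 chromosome 7, 20281458 to 20284515, minus strand, protein-coding) was the most abundant member in lung, at 279.7 and 247.8 RPKM against 294.6, 246.3, 314.9 and 220.5 RPKM. Wild-type lungs 3 and 1 were its highest, the highest wild-type lung was 1.43 times the lowest, and the log2 difference was -0.02 (SE 0.16). Spp1 (ENSMUSG00000029304, mm9 chromosome 5, 104864137 to 104870069, plus strand, protein-coding) stood at 66.2 and 114.4 RPKM against 99.0, 105.9, 102.7 and 60.2 RPKM. Mutant-labelled lung 1, among the highest for the other genes, was here the second lowest after wild-type lung 4. The log2 difference of Spp1 was -0.04 (SE 0.30), and 0.35 or -0.43 when the first or the second mutant-labelled lung was left out.

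By level per length in wild-type lungs the mean order was Apoe (269 RPKM), Spp1 (91.9), Lgals3 (71.2), Cd68 (26.4), Gpnmb (8.85), Mmp12 (5.05) and Trem2 (1.38 RPKM). Apoe lay above the others in every lung, and the ranges of each later pair of neighbours overlapped across the 4 wild-type lungs. Within each lung, however, Lgals3, Cd68, Gpnmb, Mmp12 and Trem2 kept this order. Lgals3 lay above Spp1 in mutant-labelled lung 1 and wild-type lung 3, and below it in the others. The order depends on the exon length the values were divided by. The steps of the values gave a length of 6514 bases for Gpnmb and 4907 bases for Trem2, against 1257 bases for Cd68. For Gpnmb the annotated exons sum to 4611 bases, so its level per length and its read numbers are the least certain of the 7.

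Similarity of pattern was taken as the root mean square difference between log2(RPKM + 1) profiles over the 6 lungs, each centred on its own mean. By this measure Mmp12 lay 0.12 from Gpnmb, nearer than any of the 13694 genes outside the set, while Cd68 lay at 0.44, Trem2 at 0.62, Lgals3 at 0.73, Apoe at 1.01 and Spp1 at 1.22. The 6 nearest genes outside the set were Ly6i (0.13), Chil4 (0.13), Chil3 (0.17), Ctsk (0.20), Cxcr1 (0.21) and Ccl6 (0.27). Chil3 and Chil4 are chitinase-like proteins with near-identical copies in the genome, so reads may have been divided between them. Chil3 stood at 610 and 145 RPKM in the mutant-labelled pair of lungs, against 96.3, 108, 741 and 97.5 RPKM. Ctsk, the collagen-degrading cathepsin K, stood at 51.5 and 9.58 RPKM against 10.2, 10.7, 57.5 and 12.5 RPKM. The 2 genes nearest to Cd68 were Fabp5, a fatty acid carrier (0.14), and Clec4d, a lectin receptor of myeloid cells (0.15), and those nearest to Lgals3 were Bcl2a1b (0.07) and Tnfrsf9 (0.08). Those nearest to Trem2 were Gm10591 (0.11) and Ccl21b (0.13), whose reads cannot be assigned with certainty because close copies of the chemokine Ccl21 exist.

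Other genes of lipid handling and the lysosome were looked at from a list of 34, all of which were tested in lung. Mutant-labelled lung 1 and wild-type lung 3 were the 2 highest in 20 of the 34, beside 9.95% of all genes, and the limma test called 0 of the 34 for genotype, as it called 0% of all 13701 genes. The median log2 difference of the list was 0.10, against 0.01 over all genes tested. Ftl1, the ferritin light chain, stood at 1898 and 897 RPKM against 1018, 979, 1858 and 1029 RPKM, whereas the heavy chain Fth1 lay between 1690 and 2035 RPKM with wild-type lungs 1 and 3 highest. Cd36, a fatty acid and lipoprotein receptor also made by endothelium, was lowest in mutant-labelled lung 1 (242 RPKM against 288 to 329 RPKM elsewhere).

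Chosen after their values were seen, Ctsd and Plin2 show how the list varied. Ctsd, the aspartic protease cathepsin D, stood at 356 and 174 RPKM against 177, 180, 396 and 163 RPKM. Plin2, which coats lipid droplets, stood at 38.7 and 20.9 RPKM against 24.6, 26.6, 35.6 and 25.2 RPKM. In a list of 14 lysosome genes and their regulators, 6 of the 13 tested had the same 2 lungs highest and 0 were called. The widest gap there, again picked after the values were seen, was in Atp6v0d2, a proton pump subunit of macrophages and osteoclasts, at 21.1 and 6.10 RPKM against 6.57, 6.56, 27.9 and 6.24 RPKM. Of the 4 regulators of the MiT family on that list, Tfeb and Tfe3 had other libraries highest, Mitf was highest in wild-type lungs 3 and 2 (3.04 and 2.86 RPKM against 2.09 to 2.45 RPKM), and Tfec, too low to be tested, stood at 0.685 and 0.303 RPKM against 0.31, 0.255, 0.705 and 0.203 RPKM, with the same pair of lungs highest as the members. Lamp1 lay between 304 and 336 RPKM in all 6 lungs.

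Genes that act with the members were read from lists of partners. Of 17 receptors, adaptors and partners, 2 had mutant-labelled lung 1 and wild-type lung 3 highest, beside 9.95% of all genes, and 0 were called, and the median log2 difference was -0.04. Tyrobp, the signalling adaptor of Trem2, stood at 80.9 and 81.0 RPKM against 55.1, 52.6, 79.1 and 51.7 RPKM, so mutant-labelled lung 2 was as high as the lungs with high Trem2. Itgb1, an integrin chain that takes part in binding of Spp1, lay between 147 and 185 RPKM. Of 13 metalloproteases, inhibitors and related genes, 11 were tested, 2 had those lungs highest and 0 were called. Mmp9, a gelatinase also on the neutrophil list and named after its values were seen, stood at 5.85 and 12.5 RPKM against 3.79, 3.67, 4.57 and 2.95 RPKM, with both mutant-labelled lungs highest. Eln, the elastin substrate of Mmp12, stood at 37.8 and 44.4 RPKM against 40.7, 67.6, 44.5 and 39.4 RPKM, and Timp2, a metalloprotease inhibitor, lay between 143 and 182 RPKM.

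Some markers of macrophages of the air spaces moved with the members and others ran the opposite way. The alveolar macrophage list, with 14 of 14 genes listed, summed to 958 and 432 RPKM against 391, 420, 1064 and 397 RPKM, and Chil3 made up 610 and 741 of the 2 highest sums. In 8 of the 14 genes mutant-labelled lung 1 and wild-type lung 3 were the 2 highest, as for Marco, a scavenger receptor picked after its values were seen (7.53 and 9.69 RPKM against 3.49 to 5.71 RPKM). Siglecf, Ear1, Fabp1 and Car4, named after their values were seen, had the same lungs lowest. Ear1 stood at 9.02 and 8.90 RPKM in those lungs against 13.9 to 15.7 RPKM, and Fabp1 at 2.19 and 2.42 RPKM against 4.82 to 8.68 RPKM.

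The interstitial macrophage list summed to 232 and 209 RPKM against 180, 217, 243 and 191 RPKM, with 7 of 13 genes highest in the same 2 lungs. Its complement genes included C1qa, at 59.7 and 39.4 RPKM against 31.4, 35.5, 52.4 and 40.5 RPKM. The monocyte list had 0 of 9 tested genes with that order and summed to 405 and 530 RPKM against 508, 518, 434 and 416 RPKM. The general macrophage list had 4 of 15. Its receptor gene Csf1r, also picked afterwards, stood at 26.6 RPKM in mutant-labelled lung 1 and 27.0 RPKM in wild-type lung 3, within the 23.9 to 34.5 RPKM of the other lungs.

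Other cell types also differed between these lungs. In 7 of 9 genes of alveolar type 2 cells, which make surfactant, the same 2 lungs were highest, as in Sftpc at 13896 and 8967 RPKM against 12308, 10554, 13815 and 10397 RPKM, and the list summed to 18392 and 12011 RPKM against 14012 to 18313 RPKM. Mesenchymal genes had 0 of 14 with that order and summed to 1132 RPKM in mutant-labelled lung 1 and 1210 RPKM in wild-type lung 3, the 2 lowest sums. The neutrophil list differed in its order, with 1 of 11 tested genes highest in these lungs, and that gene was Lcn2 (156 and 175 RPKM against 23.5 to 46.2 RPKM). The part of these cell types in the levels of the 7 members was not tested.

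**Figure D2:**
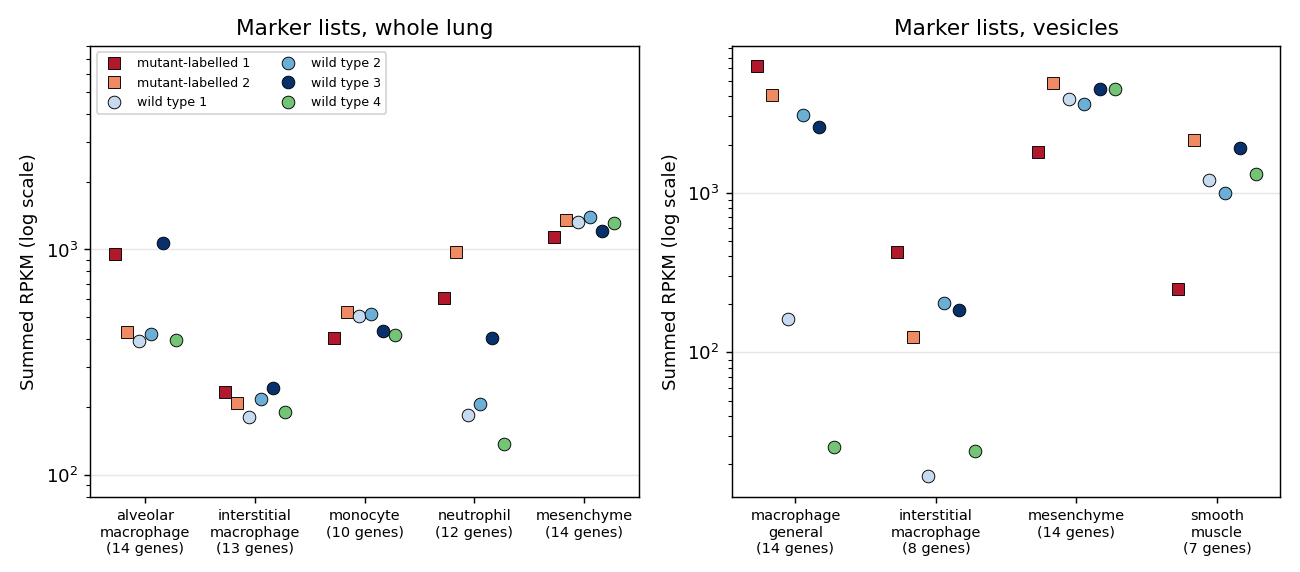
Summed RPKM of marker lists on a log axis in each library, whole lung on the left and vesicles on the right, squares for mutant-labelled and circles for wild type. The alveolar macrophage sum is highest in mutant-labelled lung 1 (958) and wild-type lung 3 (1064). The single gene Chil3 makes up 610 and 741 of these sums, and some other genes of the list were lowest in those lungs. The general macrophage sum is lowest in wild-type vesicles 1 (161) and 4 (25.5).

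In vesicles another set of libraries stood apart. In 6 of the 7 members wild-type vesicles 1 and 4 were the 2 lowest libraries, an order found for 6.57% of the 7615 genes tested, and the exception was Trem2, listed at 0 in wild-type vesicles 1, 3 and 4. Wild-type vesicles 2 and 3 thus lay with the mutant-labelled vesicles in most members. For Mmp12, Spp1 and Cd68 both mutant-labelled vesicles lay above every wild-type one, 3 of 7 members against 9.88% of genes, and in 0 of 7 did both lie below, against 9.94%. The order seen in lung, with mutant-labelled library 1 and wild-type library 3 the 2 highest, was found for Lgals3 and Apoe, 2 of 7 members beside 6.20% of genes. All 7 log2 differences were above 0, with a median of 3.03 against -0.14 over all genes tested. The limma test called 0 members for genotype and 0% of the 7615 genes, and 781 of those genes had an unadjusted p under 0.05, 398 higher and 383 lower. In lung the corresponding number was 514 of 13701, 348 higher and 166 lower. The members were chosen on these levels, so these counts describe them and support nothing.

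**Figure D3:**
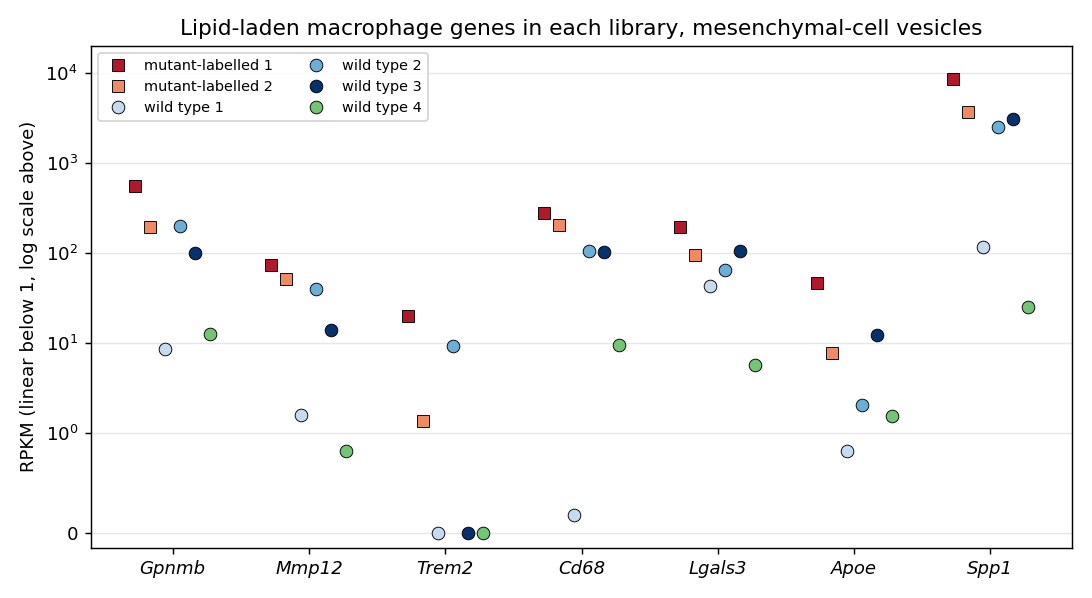
RPKM of each member in the 6 vesicle libraries, on an axis that is linear below 1 and logarithmic above, squares for mutant-labelled and circles for wild type. Wild-type vesicles 1 and 4 lie at the bottom for all members but Trem2, where wild-type vesicles 1, 3 and 4 are at 0, and Spp1 spans 24.9 to 8633 RPKM.

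Spp1 was the most abundant member in every vesicle library. It stood at 8633 and 3648 RPKM in mutant-labelled vesicles 1 and 2 and at 114.8, 2480, 3110 and 24.9 RPKM in wild-type vesicles 1 to 4. The wild-type libraries alone spanned 125-fold, and wild-type vesicles 2 and 3 came close to mutant-labelled vesicles 2. The log2 difference was 3.85 (SE 1.48) and ranged from 2.54 without wild-type vesicles 4 to 4.85 without wild-type vesicles 3.

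Gpnmb stood at 559 and 191.6 RPKM against 8.64, 198.2, 98.7 and 12.6 RPKM. The groups overlapped, since wild-type vesicles 2 lay above mutant-labelled vesicles 2. The fourth highest library was 7.86 times the fifth, which separated 4 high libraries from 2 low ones, and the log2 difference was 3.03 (SE 1.06).

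Mmp12 stood at 74.1 and 51.5 RPKM against 1.58, 39.6, 13.9 and 0.822 RPKM, a log2 difference of 3.10 (SE 1.13). Its 2 low values rest on 51 and 32 reads. Cd68 stood at 275.3 and 203.1 RPKM against 0.178, 105.4, 101.0 and 9.57 RPKM, a log2 difference of 3.63 (SE 1.41) that was 2.29 without wild-type vesicles 1. Wild-type vesicles 1 held 1 read of Cd68 where wild-type vesicles 2 held 618, at similar depths of 4.48 and 4.66 M reads.

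Lgals3 stood at 194 and 93.8 RPKM against 42.8, 64.6, 104.5 and 5.64 RPKM, with wild-type vesicles 3 above mutant-labelled vesicles 2, and its log2 difference was 1.85 (SE 0.92), which was 1.02 without wild-type vesicles 4. The gap was smaller here, with the fourth highest library 1.51 times the fifth. Apoe stood at 46.7 and 7.79 RPKM against 0.817, 2.02, 12.1 and 1.55 RPKM, a log2 difference of 2.48 (SE 1.08) that was 1.26 without mutant-labelled vesicles 1. Apoe rests on 7 to 156 reads per library, so its lower values are imprecise.

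Trem2 was read in 3 vesicle libraries, at 19.6 and 1.34 RPKM in the mutant-labelled ones and 9.31 RPKM in wild-type vesicles 2, on 168, 11 and 213 reads. Wild-type vesicles 1, 3 and 4 were listed at 0, which allows up to 0.136, 0.146 and 0.113 RPKM (3 reads each, counting error only). The log2 difference of 1.95 (SE 1.26) was 0.38 without mutant-labelled vesicles 1, 3.52 without mutant-labelled vesicles 2 and 4.10 with a pseudocount of 0.1.

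Genes of macrophages in general were read in the vesicles of these mesenchymal cultures and followed the members. Of 15 genes 14 were listed, and in 12 of the 14 wild-type vesicles 1 and 4 were the 2 lowest. Their summed level was 6164 and 4056 RPKM in mutant-labelled vesicles and 161, 3082, 2592 and 25.5 RPKM in wild-type vesicles. Lyz2, the macrophage lysozyme, stood at 4369 and 3191 RPKM against 140, 2415, 1977 and 20.6 RPKM. Ctss, the protease cathepsin S, stood at 774 and 73.4 RPKM against 0.329, 232, 92.4 and 0 RPKM, and the receptor chain Fcer1g at 212 and 253 RPKM against 5.11, 126, 232 and 0 RPKM. Csf1r, the receptor of a macrophage growth factor, named after its values were seen, stood at 5.04 and 6.72 RPKM against 0.137, 15.5, 10.6 and 0 RPKM. Adgre1, Cybb and Mpeg1 were listed at 0 in wild-type vesicles 1, and Csf1r, Cd14, Fcer1g, Spi1 and Ctss in wild-type vesicles 4. Lyz1, which is also on the alveolar type 2 list, stood at 301 and 269 RPKM against 10.8, 175, 148 and 1.76 RPKM, while Etv5, the other gene of that list read in vesicles, lay at or under 7.43 RPKM.

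Mesenchymal genes did not share that order. Their 14 genes summed to 1799 and 4868 RPKM in mutant-labelled vesicles and 3850, 3596, 4461 and 4472 RPKM in wild-type vesicles, and 0 of 14 had wild-type vesicles 1 and 4 lowest. Acta2, smooth muscle actin, stood at 203 and 1537 RPKM against 739, 773, 1293 and 1015 RPKM, so the library with the most of every member, mutant-labelled vesicles 1, had the least of it. Smooth muscle genes summed to 248 RPKM in that library and 993 to 2127 RPKM in the others. Not every gene of these lists was low there, as genes named after their values were seen show. Of the mesenchymal list, Fn1 (162 RPKM), Postn (43.4 RPKM) and Col1a2 (35.8 RPKM) were highest in mutant-labelled vesicles 1. So was Des (30.7 RPKM) of the smooth muscle list. Of 9 dendritic cell genes 0 were listed, of 14 alveolar macrophage genes 3, of 12 neutrophil genes 2 and of 13 interstitial macrophage genes 8, whose sum was 427 and 125 RPKM against 16.8, 205, 183 and 24.0 RPKM. The part of macrophage RNA in the vesicle levels of the members was not tested.

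Among lipid handling genes 29 of 34 were listed in vesicles and 28 tested, 24 of them with a log2 difference above 0, a median of 1.49 and 0 called. In 11 of the 28 wild-type vesicles 1 and 4 were the 2 lowest, beside 6.57% of all genes. In 10 both mutant-labelled vesicles lay above every wild-type one, beside 9.88% of all genes. No gene of the vesicle table had a low mean in both groups, so a gene low in wild type was listed only through its mutant-labelled mean. Among the 10, Itgax and Fabp4, named after their values were seen, were such genes. Such a selection favours this order, and its part in the count was not tested. Ctsd stood at 800 and 816 RPKM against 81.5, 725, 569 and 162 RPKM, the order of the members. Ftl1, which had followed the members in lung, stood at 3573 and 3465 RPKM against 2871, 1523, 3038 and 2115 RPKM, with wild-type vesicles 2 lowest. Atp6v0d2 stood at 159 and 49.9 RPKM against 9.62, 46.5, 40.1 and 0.477 RPKM. Of the 12 listed receptors and partners 4 had wild-type vesicles 1 and 4 lowest. Cd44, a receptor of Spp1, stood at 87.8 and 68.5 RPKM against 15.4, 14.6, 25.1 and 19.2 RPKM, with both mutant-labelled vesicles above every wild-type one and no such gap among the wild-type libraries.

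By the same measure of pattern over the 6 vesicle libraries, the 6 genes outside the set nearest to Gpnmb were Cd300ld (0.19), Lpl (0.31), Efhd2 (0.35), Lilr4b (0.41), C1qc (0.43) and Cd84 (0.46). Lpl, the lipoprotein lipase, stood at 97.5 and 31.3 RPKM against 1.44, 36.9, 16.2 and 0.652 RPKM, whereas in lung it lay between 30.6 and 51.1 RPKM with no gap. Cd84, a leukocyte surface receptor, was also the gene nearest to Mmp12 (0.18). The genes nearest to Spp1 were Lyz2 (0.41) and Fcer1g (0.54), and those nearest to Cd68 were the leukocyte tetraspanin Cd53 (0.82) and Lilrb4a (0.85). Lilr4b and Lilrb4a are close copies of each other, and reads may have been divided between them.

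The tables were normalized separately, so lung and vesicles were compared by percentile within each library, over the 8096 genes in both tables and without a test. Gpnmb lay at a median percentile of 16.7 in wild-type lungs (15.7 to 76.3) and 82.3 in wild-type vesicles (64.1 to 97.4), and in every vesicle library but wild type 1 and 4 it lay above all 6 lungs. Mmp12 moved from 7.7 (6.0 to 61.4) to 51.5 (21.9 to 89.1). Apoe went the other way, from 98.7 (98.4 to 99.0) in wild-type lungs to 32.1 (23.4 to 69.0) in wild-type vesicles, with no overlap between the sources, and in mutant-labelled libraries from 98.4 and 98.7 to 57.3 and 88.8.

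Spp1 was among the highest genes in each source, at 95.7 (91.9 to 95.9) in wild-type lungs and 97.4 (82.3 to 99.8) in wild-type vesicles, and at 99.9 in both mutant-labelled vesicles. Lgals3 lay at 91.9 and 91.2, and Cd68 at 65.5 and 79.6 with wild-type vesicles spread from 14.0 to 95.6. Trem2 lay at 3.9 (2.9 to 13.5) in wild-type lungs and 4.2 (3.5 to 65.2) in wild-type vesicles, and at 76.3 and 23.8 in mutant-labelled vesicles 1 and 2, so it was low in every lung and spread widely over the vesicle libraries. Ranked among the 8096 genes listed for vesicles, Gpnmb and Cd68 were thus low or intermediate in most lungs and high in most vesicle libraries. Apoe was high in every lung and lower in every vesicle library.

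**Figure D4:**
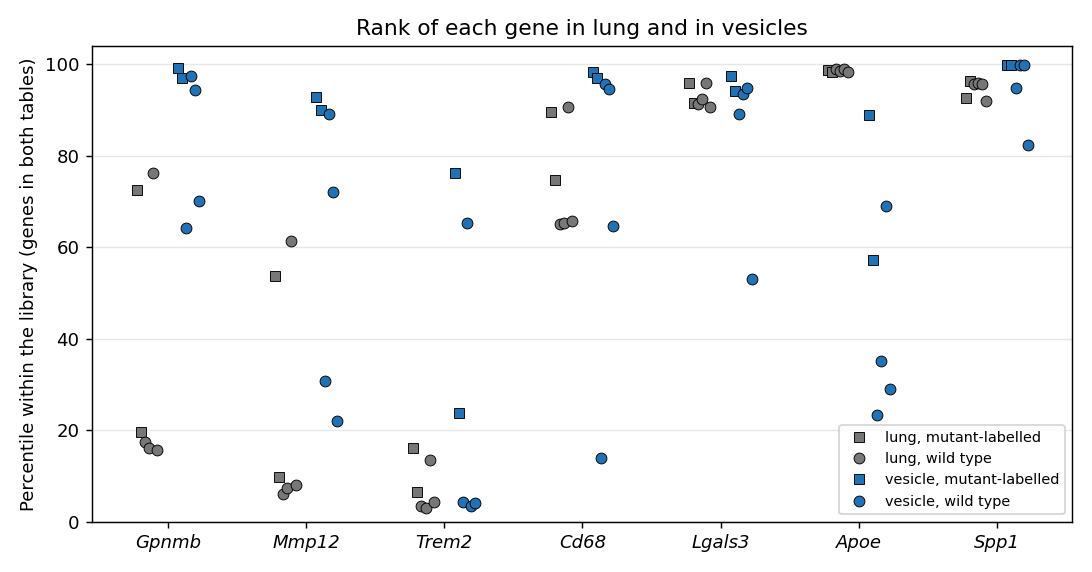
Percentile of each member within each library over the 8096 genes listed in both tables, grey for lung and blue for vesicles, squares for mutant-labelled and circles for wild type. In wild type Gpnmb rises from a median of 16.7 to 82.3 and Apoe falls from 98.7 to 32.1, while Spp1 stays near the top.

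Set side by side for Gpnmb, the replicate numbers agreed between sources in part. Number 1 of the mutant-labelled libraries was first or second in each source, and wild-type numbers 1 and 4 were low in each. Wild-type number 3 was the highest lung (24.9 RPKM) and the fourth of the 6 vesicle libraries (98.7 RPKM). Wild-type number 2 was low in lung (3.42 RPKM) and high in vesicles (198.2 RPKM), and mutant-labelled number 2 was near the low wild-type lungs (4.36 RPKM) and high in vesicles (191.6 RPKM).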

How the data were processed

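Whole lungs and vesicles from cultured lung mesenchymal cells were sequenced, 12 libraries in all. Reads were aligned with TopHat2 to mm9 and counted with HTSeq, per the submitters' processing notes. The sources used here do not give versions, settings, strand handling or annotation. The authors deposited 1 RPKM table per source with 6 library columns each, tied to libraries by the sample descriptions, and 0 other value columns. The headers name no unit. RPKM was read from the values, which times exon length (GENCODE M1 on mm9) fell within 0.02 of whole multiples of 1 step per column for 54.4% to 71.6% of low values, and that step gave the depth. Member reads used the length nearest the annotated one that gave whole reads, and are approximate. In the vesicle table the larger group mean was at least 2.00 RPKM in every gene.

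Genotype was fitted per table with limma-trend (limma 3.58.1, R 4.3.3) on log2(RPKM + 1), over genes that reached 1 RPKM in 2 or more libraries, Benjamini-Hochberg adjusted at 0.05. Folds on this scale are understated for low genes. Members, lists and motifs were chosen with earlier results of these data known, and counts of libraries that rank highest or lowest were chosen after the values were seen. Named were the members, the genes nearest in pattern, and up to 4 of the most abundant genes of a list, others being marked as chosen after their values were seen or given for their role. Alternatives were another pseudocount, other filters, median-ratio scaling, a replicate block, sex as a covariate and leaving out each library.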

Additional observations from a re-analysis of the deposited data

Results flagged for a closer look

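In groups of 4 wild-type libraries, a member was singled out where the gap between its extreme library and the nearest other exceeded the 95% limit of Dixon's test, as a share of the group's range on the log2(RPKM + 1) scale. Of 14 groups checked 5 did so. In groups not chosen by their values chance flags about 1 in 20, but these members were chosen because single libraries stood apart, so the number is not read against that rate and the gaps are a description. In lung wild-type library 3 was far above the others for Gpnmb (gap 0.959 of the range), Mmp12 (0.897) and Cd68 (0.985). Wild-type lung 4 was far below the others for Spp1 (0.88). In vesicles wild-type library 2 was the only wild-type library with Trem2 above 0 (1.0). The members share these libraries, so these are not 5 separate observations.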

How the results depend on the processing

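The count of genes called for genotype in lung was 0 in the reported fit and under each alternative except without a filter on low values, where it was 1 (Gm17374, named after its value was seen). In vesicles it was 0 under each alternative except without mutant-labelled library 2, where 377 of 7318 genes were called and 0 members. Over the fits that left out a library the lung count was 0 throughout and the vesicle count 0 to 377. The cause was not tested.

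With the replicate number as a block, 0 genes were called in lung and 0 in vesicles. Deviations from the group mean were compared between same-numbered libraries of the 2 groups. The correlations were -0.481 and 0.0494 in lung and -0.0477 and -0.118 in vesicles. The 2 mutant-labelled libraries deviate as mirror images of each other by construction, so these are not separate checks. The numbers are thus not shown to pair the libraries. Under the block the log2 difference of Gpnmb was 1.27 in lung and 2.91 in vesicles. Wild-type numbers 3 and 4 have no mutant-labelled partner, so these differences rest on wild-type libraries 1 and 2. In lung they leave out wild-type library 3, the highest for Gpnmb. With sex as a covariate the lung differences of Gpnmb and Mmp12 were 0.04 and -0.07. The sex fit in effect compares the mutant-labelled lungs with wild-type lungs 3 and 4, the ones also not read as male.

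Leaving out 1 library moved the lung difference of Gpnmb between -0.38 and 1.68, of Mmp12 between -0.34 and 1.63, of Lgals3 between -0.17 and 0.65, of Spp1 between -0.43 and 0.35 and of Apoe between -0.11 and 0.07. Trem2 (0.19 to 1.01) and Cd68 (0.05 to 1.10) stayed above 0. In vesicles each member stayed above 0 under all 12 alternatives. The percentile difference between wild-type vesicles and lungs kept its sign for Gpnmb, Mmp12 and Apoe, and ran from -1.0 to 29.2 for Cd68 when 1 library was left out. Depth limits Trem2 and Apoe in vesicles. The percentile alternative at 5 RPKM could not be given for Trem2, and that filter also removed it from the lung test.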

Other observations

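Genes of type 2 inflammation, an airway response of allergic kind, were read in the same lungs. Of 16 genes 11 were tested, and in 8 of them mutant-labelled lung 1 and wild-type lung 3 were the 2 highest, beside 9.95% of all genes, and 0 were called. Chil4, which is on this list, is among the genes nearest to Gpnmb and Mmp12. Il33, an epithelial alarm cytokine, stood at 22.7 and 9.53 RPKM in the mutant-labelled pair of lungs, against 14.4, 15.7, 22.8 and 12.8 RPKM in wild type, and the chemokine Ccl17 at 13.1 and 6.41 RPKM against 6.71, 10.6, 17.4 and 9.49 RPKM. Retnla, a secreted protein of such inflammation, was high in mutant-labelled lung 1 at 747 RPKM and stood at 84.2 RPKM in wild-type lung 3, within the 30 to 87.9 RPKM of the remaining lungs. In vesicles 1 of the 16 genes, Ccl8, was listed.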
